A study of Mus musculus with 12 samples.

Results

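AP-1 is a family of transcription factors that bind DNA as pairs joined by a leucine zipper. The 10 members described here were taken by name from the 20551 genes of a count table of mouse airway macrophages (AMs). The rule itself uses no measured value, but the members and the gene lists below were chosen with earlier results of these data known. They are the JUN proteins Jun, Junb and Jund, the FOS proteins Fos, Fosl1 and Fosl2, the related factors Atf3 and Batf, and the small MAF proteins Maff and Mafk. All 10 passed the filter on low counts, as did 13729 genes of the whole table.

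The libraries were made from RNA of AMs of C57BL/6 mice, either wild-type (WT) littermates or Scnn1b-Tg mice (Tg in the plots). In Scnn1b-Tg mice the club cell promoter CCSP drives the beta subunit of the epithelial sodium channel in airway cells, which gives mucus obstruction, so the transgene is directed to cells other than the macrophages measured here. Cells pooled from 3 to 4 animals were kept for 12 h in complete medium or in medium with 100 ng/ml lipopolysaccharide (LPS) of Pseudomonas aeruginosa, a bacterial cell wall product that is sensed through TLR4. Genotype and treatment gave 4 groups of 3 libraries each, from pools 16, 17 and 18 for WT and pools 17, 18 and 19 for Scnn1b-Tg. The study's methods give the animals as 6-week-old females. The sample descriptions speak of lavage cells that adhered to plastic, and the methods speak of sorted cells that were positive for Siglec-F and CD11c. Both accounts are given because which one applies was not resolved.

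JUN proteins pair with one another or with FOS proteins, whereas FOS proteins need a JUN partner. The pairs bind short palindromes, TGANTCA or the longer TGANNTCA, whose best known form is TGACGTCA. Many members are immediate early genes, which rise within minutes of a stimulus without new protein synthesis and then decline, and the MAP kinases ERK, JNK and p38 control them at the promoter and on the protein. In macrophages AP-1 acts beside NF-κB downstream of TLR4. The single time point of 12 h measured the late state, after the first wave that such genes usually show.

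The libraries held between 48191248 and 60896505 counts. Levels are given in CPM, a gene's counts relative to its library's total, with the totals scaled between libraries by the TMM method. All 16 macrophage markers of a fixed list, including Chil3, were above a detection floor of 8 counts in every library. Their summed level in medium was 19200 to 19500 CPM in WT AMs and 20400 to 24100 CPM in Scnn1b-Tg AMs, and with LPS it was 13800 to 16000 and 15100 to 20400 CPM. Chil3 made up a large part of this sum, with a mean of 9970 CPM in WT medium. Of the 16 genes, 4 rose and 10 fell with LPS in WT AMs and 3 rose and 10 fell in Scnn1b-Tg AMs by the edgeR test described below, with median log2 fold changes of -1.62 and -1.85, and the part of this in the members' changes was not tested. The 10 epithelial markers summed to 124 to 143 and 74.6 to 113 CPM in medium and to 91.5 to 137 and 43.8 to 77.8 CPM with LPS, in WT and Scnn1b-Tg AMs, and Scgb1a1 or Krt19 led. The neutrophil list lay between 15.2 and 37.8 CPM. Each library had 4 to 6 of its genes above the floor, while S100a9 and Ngp were at or below it. By group mean, Csf3r led in WT medium (6.53 CPM), Mmp8 in Scnn1b-Tg medium (11.2) and S100a8 with LPS (7.32 in WT, 11.1 in Scnn1b-Tg). The lymphoid list did not exceed 3.75 CPM. Monocyte markers reached 40.2 CPM, dendritic cell markers 3.73 CPM and eosinophil markers 20.5 CPM, the last through Ear6 and with Prg2 at or below the floor. The 3 channel subunits summed to at most 1.14 CPM, so Scnn1b, driven here by a club cell promoter, gave no check of the genotype labels. In bulk RNA, fewer cells of a type and less RNA per cell cannot be told apart.

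Promoter stretches are shown first for Jun, Maff, Fos and Fosl2, whose windows held an AP-1 or κB match. These members did not all change in the same direction with LPS. The 300-base windows, 250 bases before to 50 after each RefSeq start on GRCm38.p6 (mm10), were available for 9 members as 11 windows, 3 of them for Maff; Fosl1 was not included. Both strands were searched. TGANTCA was found in none of the 11 windows and in 7.81% of 32851 promoter windows of all genes. TGANNTCA was found in 4 windows of 3 members, Jun, Jund and Maff, against 14.12% of all windows, and its special case TGACGTCA in 1 window of Maff, against 1.79% of all windows. The NF-κB consensus was found in windows of Fos, Fosl2 and Maff, against 8.46% of all windows, and the serum response CArG box in no member window, against 1.63%. Sites farther from the starts were not searched, so a motif absent here may lie outside the windows.

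The stretches around the TGANNTCA matches of Jun and Maff read as follows, 5′ to 3′ on the strand of the gene, with the match in capitals. They begin 30 bases before the match and end 30 bases after it or at the start site.
Jun, chr4:95052230-95052297, minus strand: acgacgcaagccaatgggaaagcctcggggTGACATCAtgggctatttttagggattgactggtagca
Maff, start 2, chr15:79347461-79347519, plus strand: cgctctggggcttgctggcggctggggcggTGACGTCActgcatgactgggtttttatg
Maff, start 3, chr15:79348327-79348394, plus strand: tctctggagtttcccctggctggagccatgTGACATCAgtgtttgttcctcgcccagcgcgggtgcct
Jun and start 3 of Maff carried the same 8 letters, TGACATCA, 45 bases before their starts. The TGACGTCA of Maff start 2 lay 29 bases before it. Jun had a second match, TGAGCTCA, just past its start, and the Jund match, TGAAATCA, lay 61 bases before a RefSeq start that is upstream of the annotated Jund gene.

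The κB matches of Fos, Fosl2 and Maff are shown in the same way because the 3 genes differed in their change with LPS. The capitals of Fosl2 join overlapping matches on opposite strands and are therefore longer than a single match.
Fos, chr12:85473646-85473715, plus strand: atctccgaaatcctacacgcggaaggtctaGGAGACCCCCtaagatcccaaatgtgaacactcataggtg
Fosl2, chr5:32136260-32136330, plus strand: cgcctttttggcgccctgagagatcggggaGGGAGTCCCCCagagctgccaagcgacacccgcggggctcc
Maff, start 3, chr15:79348302-79348371, plus strand: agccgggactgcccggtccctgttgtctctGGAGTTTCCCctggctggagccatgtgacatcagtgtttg
A match is a description of these letters and not evidence of binding, and the counts do not tell which start of Maff was used.

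LPS against medium was compared in each genotype with edgeR's quasi-likelihood test, with library batch as a term and Benjamini-Hochberg adjustment over 13729 genes. In WT AMs 7 of the 10 members changed, 6 higher (Junb, Jund, Fosl1, Batf, Maff and Mafk) and 1 lower (Fos), where 30.9% of all genes changed, 15.2% higher and 15.7% lower. In Scnn1b-Tg AMs 8 of the 10 changed, the same 6 higher and Jun and Fos lower, where 36.7% of all genes changed, 18.8% higher and 17.8% lower. The median log2 fold change of the members was 0.49 in WT and 0.49 in Scnn1b-Tg, and that of all tested genes was 0.0 and -0.02. Without regard to sign, the median size was 0.66 for members and 0.32 for all genes in WT, and 0.79 and 0.36 in Scnn1b-Tg. Atf3 and Fosl2 did not pass in either genotype. The groups did not overlap for 8 members in each genotype, against 38.7% of all genes in WT and 43.8% in Scnn1b-Tg. With the pool as a block, which compares the LPS and medium libraries of one pool, 9 members passed in WT, where 36.6% of all genes did, and 8 in Scnn1b-Tg, where 42.1% did.

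**Figure D1:**
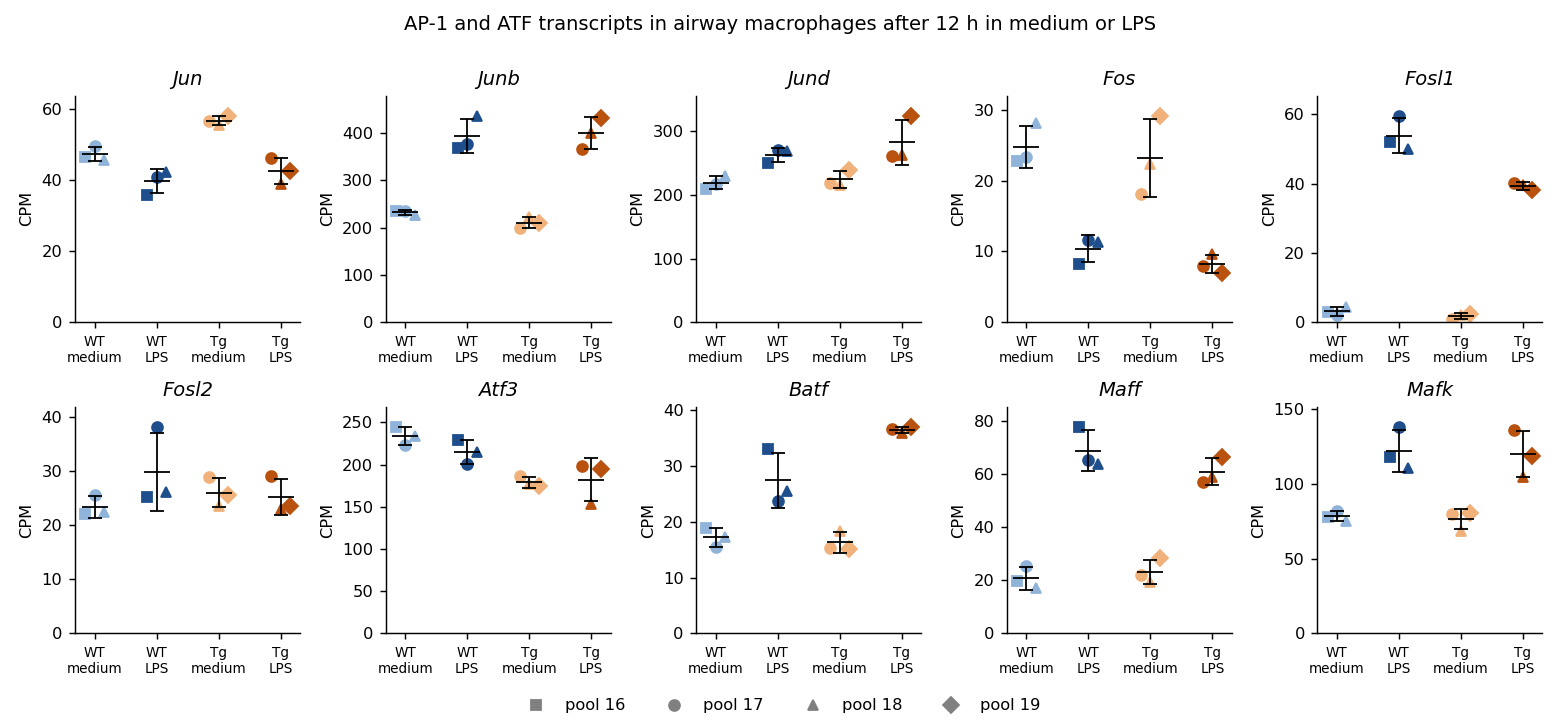
Level of each member (y axis, CPM on a linear scale from 0) in the 12 libraries, grouped by genotype and treatment. Points are libraries with symbols by pool number, which names different animals in the 2 genotypes, and bars are the mean ± SD of 3 libraries. Fosl1 stood at 0.856 to 4.44 CPM in medium and 38.1 to 59.5 CPM in LPS, while Fos fell from 18.1 to 29.1 CPM in medium to 6.98 to 11.6 CPM in LPS.

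**Figure D2:**
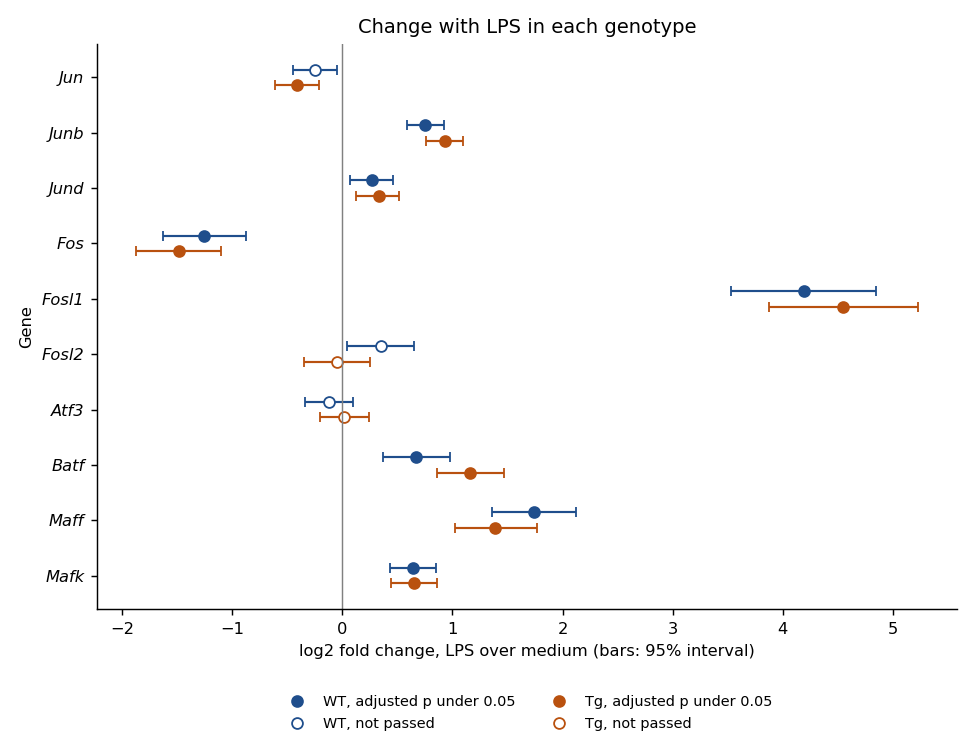
Fitted log2 fold change, LPS over medium (x axis), of each member (y axis) in WT and Scnn1b-Tg AMs, with 95% intervals. Filled points have an adjusted p under 0.05, and Fosl1 lies farthest from 0 in both genotypes, at 4.19 in WT and 4.55 in Scnn1b-Tg.

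Of the JUN proteins, Junb was raised most by LPS. Junb (ENSMUSG00000052837, chr8:84974484-84978718, minus strand) encodes a JUN protein that is a weaker activator than Jun and often opposes it. Its level was 235, 236 and 226 CPM in WT medium and 368, 378 and 436 CPM in WT LPS. In Scnn1b-Tg AMs it was 199, 222 and 209 CPM in medium and 367, 401 and 433 CPM in LPS. Each LPS library stood above each medium library of its genotype. The fitted log2 fold change was 0.75 ± 0.08 (SE, n = 3, adjusted p = 2.91e-05) in WT and 0.93 ± 0.08 (SE, n = 3, adjusted p = 4.51e-06) in Scnn1b-Tg, both by edgeR. Within pools Junb rose between 1.56-fold and 1.93-fold in WT and between 1.8-fold and 2.07-fold in Scnn1b-Tg. Its exons share 173 bases with Prdx2 on the other strand, which did not pass in either genotype (log2 fold change -0.25 in WT and -0.16 in Scnn1b-Tg).

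Jun (ENSMUSG00000052684, chr4:95049034-95052222, minus strand), the single-exon gene of the founding member and strongest activator of the family, went the other way. Its level was 46.5, 49.7 and 45.8 CPM in WT medium and 35.8, 40.8 and 42.3 CPM in WT LPS, and it was lower in LPS in 3 of 3 pools. The groups did not overlap, but the log2 fold change of -0.25 ± 0.09 (SE, n = 3) gave an edgeR adjusted p of 0.0544. It passed with the pool as a block (-0.26, adjusted p = 0.0301), with DESeq2 (adjusted p = 0.0302), with the counts divided by 5 (adjusted p = 0.0431) and without the WT LPS library of pool 18 (-0.33, adjusted p = 0.0393). Over the 13 other settings tried its adjusted p ran from 0.0301 to 0.171. In Scnn1b-Tg AMs Jun was at 56.7, 55.4 and 58.0 CPM in medium and fell to 46.3, 38.9 and 42.6 CPM in LPS. This change of -0.41 ± 0.09 (SE, n = 3) had an edgeR adjusted p of 0.00425 and was present in 3 of 3 pools. The counting ignored strand, and 232 exon bases of Jun overlap its antisense transcript Junos, which had group means of 0.801 to 2.14 CPM.

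Jund (ENSMUSG00000071076, chr8:70698949-70700616, plus strand), known as the JUN protein of resting cells, had small rises. It was at 210, 218 and 230 CPM in WT medium and 251, 271 and 269 CPM in WT LPS. In Scnn1b-Tg AMs it was at 219, 215 and 240 CPM in medium and 261, 263 and 324 CPM in LPS. The LPS libraries again stood above the medium libraries without overlap. Fitted log2 fold changes were 0.27 ± 0.09 (SE, n = 3, edgeR adjusted p = 0.0397) in WT and 0.33 ± 0.09 (SE, n = 3, edgeR adjusted p = 0.0136) in Scnn1b-Tg. The WT call was close to the threshold: it was lost without the WT medium library of pool 16 (adjusted p = 0.105), 17 (0.0871) or 18 (0.0635), without the WT LPS library of pool 17 (0.114) or 18 (0.0826), and with no batch term (0.0711). The Scnn1b-Tg call was lost without the medium library of pool 18 (adjusted p = 0.0644) or the LPS library of pool 19 (0.0531). Gm11175, an antisense gene that covers 877 of the 1668 exon bases of Jund, had at most 4 counts in any library.

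Compared per length, the JUN transcripts shifted from Jund towards Junb. Per kilobase of exon, Jund was at 131 ± 5.93 CPM (SD, n = 3) in WT medium, Junb at 101 ± 2.39 and Jun at 14.8 ± 0.638. Jund held 53.1% of the summed CPM per kilobase of the 3 genes in WT medium and 46.3% in WT LPS. Junb went from 40.9% to 50.0% and Jun from 6.01% to 3.64%. In Scnn1b-Tg AMs the shares of Jund, Junb and Jun were 55.3%, 37.4% and 7.29% in medium and 47.4%, 48.8% and 3.77% in LPS. The summed level went from 247 to 342 CPM per kilobase in WT and from 244 to 357 in Scnn1b-Tg.

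The FOS proteins moved apart. Fos (ENSMUSG00000021250, chr12:85473890-85477273, plus strand), the classical immediate early gene, was at 22.8, 23.3 and 28.2 CPM in WT medium and 8.15, 11.6 and 11.3 CPM in WT LPS. The Scnn1b-Tg libraries had 18.1, 22.3 and 29.1 CPM in medium and 7.99, 9.57 and 6.98 CPM in LPS. It was lower in LPS in 6 of 6 pools and the groups did not overlap. The log2 fold change was -1.25 ± 0.17 (SE, n = 3, edgeR adjusted p = 0.000273) in WT and -1.48 ± 0.17 (SE, n = 3, edgeR adjusted p = 6.47e-05) in Scnn1b-Tg. The fitted level in LPS was thus 0.42 of that in medium in WT and 0.358 of it in Scnn1b-Tg.

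Fosl1 (ENSMUSG00000024912, chr19:5447547-5455946, plus strand) encodes FRA-1, a FOS protein without the strong activation domain of Fos that accumulates under sustained ERK signalling. It had the largest change of the 10 members. In WT medium it was at 2.78, 1.98 and 4.44 CPM and in WT LPS at 52.1, 59.5 and 50.0 CPM. In Scnn1b-Tg medium it was at 0.856, 2.15 and 2.24 CPM, from 50 to 120 counts a library, and in LPS at 40.2, 39.6 and 38.1 CPM. Each LPS library was thus far above each medium library of its genotype. The fitted rise was 18.3-fold (95% interval 11.6 to 28.9) in WT and 23.5-fold (14.6 to 37.6) in Scnn1b-Tg, with edgeR adjusted p of 2.25e-06 and 1.08e-06. The rise differed widely between pools, from 11.3-fold to 30.1-fold in WT and from 17-fold to 47.0-fold in Scnn1b-Tg, the highest being Scnn1b-Tg pool 17 with the lowest medium level. Ccdc85b, on the opposite strand, covers 1163 of the 2033 exon bases of Fosl1, and without strand the reads of the 2 genes cannot be told apart there. The counts assigned to Ccdc85b did not rise with LPS (log2 fold change -0.49, adjusted p = 0.0218 in WT, and -0.28, adjusted p = 0.155 in Scnn1b-Tg, by edgeR), with group means of 10.7 to 15.2 CPM.

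Fosl2 (ENSMUSG00000029135, chr5:32135801-32157842, plus strand), the gene of FRA-2, did not pass in either genotype. It was at 22.1, 25.6 and 22.3 CPM in WT medium and 25.2, 38.0 and 26.0 CPM in WT LPS, where pool 17 stood above the others. In Scnn1b-Tg AMs it was at 28.8, 23.5 and 25.6 CPM in medium and 29.0, 23 and 23.5 CPM in LPS. The log2 fold change in WT was 0.35 ± 0.14 (SE, n = 3, edgeR adjusted p = 0.0809), positive in 3 of 3 pools. It passed with the pool as a block (0.33, adjusted p = 0.0243) and without the WT LPS library of pool 16 (0.49, adjusted p = 0.00892). Without the WT LPS library of pool 17 it was 0.17 (adjusted p = 0.313), and over the 13 other settings tried the adjusted p ran from 0.00892 to 0.313. In Scnn1b-Tg it was -0.05 with a 95% interval of -0.35 to 0.25.

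Per length, the main FOS transcript changed from Fos to Fosl1. Fos held 72.7% ± 0.275 (SD, n = 3) of the FOS family's summed CPM per kilobase in WT medium and 12.9% ± 2.04 in WT LPS. Fosl1 went from 10.2% ± 3.03 to 77.9% ± 2.38. In Scnn1b-Tg AMs Fos went from 72.8% ± 3.8 to 13.6% ± 1.79 and Fosl1 from 6.25% ± 2.23 to 76.0% ± 1.35. Fosl2 took 16.8% and 20.6% in medium and 8.95% and 10.2% in LPS, in WT and Scnn1b-Tg, and Fosb, with group means of 0.247 to 0.327 CPM, took at most 0.311% of the sum as a group mean. These shares depend on the length used, the merged exons of all annotated transcripts, 9680 bases for Fosl2 and 2352 for Fos. Without division by length, Fosl2 and Fos were at 23.3 and 24.8 CPM in WT medium and at 29.8 and 10.4 CPM in WT LPS. The summed level went from 14.5 ± 1.76 to 34.0 ± 3.58 CPM per kilobase in WT and from 13.4 ± 2.53 to 25.4 ± 1.12 in Scnn1b-Tg, well under the JUN sum in each group.

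**Figure D3:**
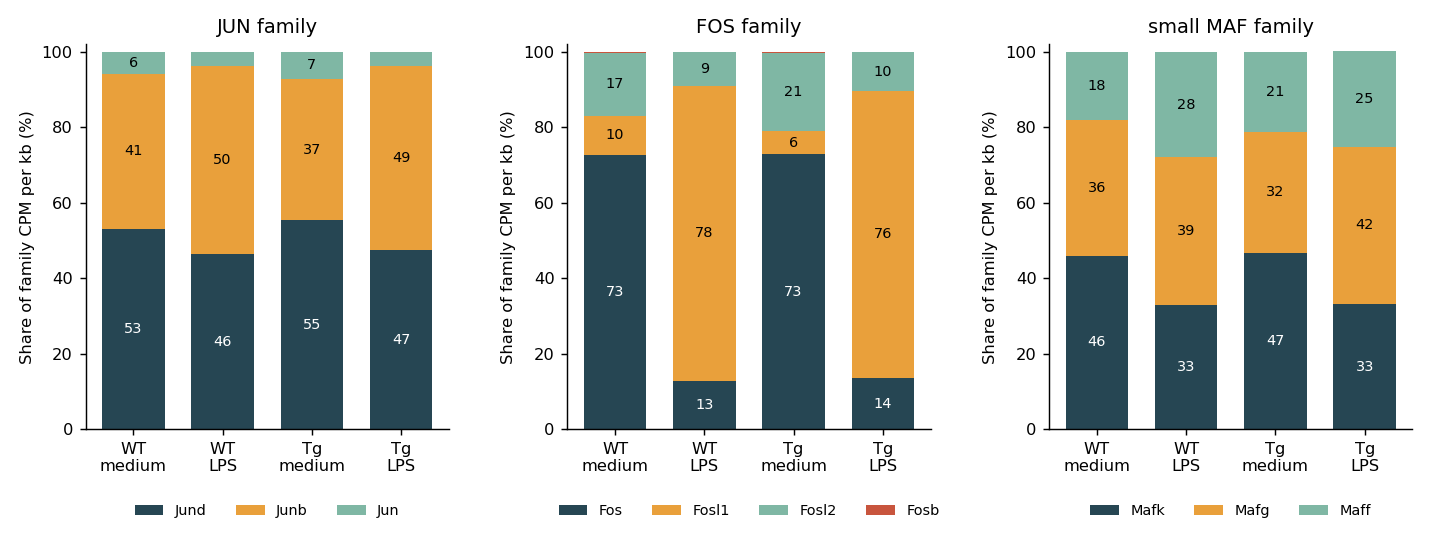
Share of each gene (y axis, % of the family's summed CPM per kilobase of exon, mean of 3 libraries) in the JUN, FOS and small MAF families, by group. Fos held 72.7% of the FOS family in WT medium and 12.9% in WT LPS, while Fosl1 went from 10.2% to 77.9%.

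Atf3 was abundant in every group and did not pass with LPS. Atf3 (ENSMUSG00000026628, chr1:191170296-191218039, minus strand) encodes a stress-induced factor known to restrain cytokine genes downstream of TLR4. It was at 244, 223 and 234 CPM in WT medium and 229, 201 and 215 CPM in WT LPS. The Scnn1b-Tg libraries had 186, 177 and 174 CPM in medium and 198, 153 and 195 CPM in LPS. The medium and LPS ranges overlapped in both genotypes. Its log2 fold change had a 95% interval of -0.34 to 0.1 in WT and -0.2 to 0.24 in Scnn1b-Tg (edgeR adjusted p = 0.416 and 0.882).

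Batf rose in both genotypes. Batf (ENSMUSG00000034266, chr12:85686669-85709087, plus strand) encodes a small factor without an activation domain that pairs with JUN proteins and binds composite sites with IRF4 and IRF8. It was at 18.9, 15.5 and 17.2 CPM in WT medium and 33.0, 23.7 and 25.5 CPM in WT LPS. In Scnn1b-Tg AMs it was at 15.3, 18.4 and 15.2 CPM in medium and 36.7, 35.9 and 36.9 CPM in LPS. All LPS libraries were above all medium libraries, and the 3 Scnn1b-Tg LPS libraries were above the WT LPS libraries. Fitted log2 fold changes were 0.67 ± 0.14 (SE, n = 3, edgeR adjusted p = 0.0035) in WT and 1.16 ± 0.14 (SE, n = 3, edgeR adjusted p = 6.77e-05) in Scnn1b-Tg. Of its IRF partners, Irf8 fell by 0.83 on the log2 scale in WT (edgeR adjusted p = 0.000182) and by 0.86 in Scnn1b-Tg (adjusted p = 0.000104). Irf4 is counted below among the 7 partners and turnover factors, and its own value is not given. The fall of Irf8 therefore does not describe both partners.

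The small MAF genes rose together. Small MAF proteins have a leucine zipper and no activation domain, and they pair with NRF2, BACH and some FOS proteins. Maff (ENSMUSG00000042622, chr15:79346621-79359076, plus strand) was at 19.8, 25.2 and 17 CPM in WT medium and 77.6, 65.3 and 63.7 CPM in WT LPS. The Scnn1b-Tg libraries had 22.1, 19.2 and 28.2 CPM in medium and 57.1, 58.8 and 66.6 CPM in LPS. The highest medium library, at 28.2 CPM, stood below the lowest LPS library, at 57.1 CPM. Maff rose 3.34-fold (95% interval 2.57 to 4.35) in WT and 2.63-fold (2.02 to 3.41) in Scnn1b-Tg, with edgeR adjusted p of 2.46e-05 and 8.41e-05.

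Mafk (ENSMUSG00000018143, chr5:139791513-139802653, plus strand) was at 78.2, 82.0 and 75.1 CPM in WT medium and 118, 138 and 111 CPM in WT LPS. In Scnn1b-Tg AMs it was at 79.8, 68.6 and 80.6 CPM in medium and 136, 105 and 119 CPM in LPS. Each LPS library was above each medium library, and the rise was 1.56-fold (95% interval 1.35 to 1.8) in WT and 1.57-fold (1.35 to 1.81) in Scnn1b-Tg, with edgeR adjusted p of 0.000462 and 0.000318. Mafg, another small MAF gene and not one of the 10, rose 2.37-fold in WT and 2.88-fold in Scnn1b-Tg. Together the 3 genes went from 43.8 ± 1.88 to 95.2 ± 1.65 CPM per kilobase (SD, n = 3) in WT and from 41.9 ± 2.78 to 92.8 ± 5.29 in Scnn1b-Tg. The share of Mafk went from 46.0% to 32.9% in WT and from 46.7% to 33.2% in Scnn1b-Tg.

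The order of the members per kilobase of exon changed with LPS. In WT medium Jund led with 131 CPM per kilobase, ahead of Atf3 with 108 and Junb with 101, and the libraries of these 3 did not overlap with one another. Mafk followed at 20.1, Jun at 14.8, Batf at 12.2, Fos at 10.5 and Maff at 7.96, of which Batf and Fos, and Fos and Maff, overlapped. Fosl2 with 2.41 and Fosl1 with 1.51 were lowest. In WT LPS Junb (171) and Jund (158) led with overlapping ranges, Atf3 (99.8) was next, and Mafk (31.4), Maff (26.5) and Fosl1 (26.5) formed an overlapping middle above Batf (19.5) and Jun (12.4). Fos (4.41) and Fosl2 (3.07) were lowest and overlapped. The Scnn1b-Tg order was the same in medium except that Junb (91.3) and Atf3 (83.1) were exchanged and overlapped. In Scnn1b-Tg LPS Batf (26.0) ranked above Maff (23.5), with which it overlapped, and Fosl1 (19.3).

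Over the 12 libraries, and as a description of points that share treatment and pool, the log2 CPM of Fosl1 was most like that of Junb (Pearson r = 0.97), that of Mafk most like Maff (r = 0.93) and that of Fos most like Jun (r = 0.72). Batf and Fos ran opposite (r = -0.94). Around the group means, which removes the LPS change, the closest pair was Fosl2 and Mafk (r = 0.84), and Junb was most like Jund (r = 0.44). These deviations keep differences between pools and batches. Fosl2 and Mafk were both highest in pool 17 in WT LPS (38.0 and 138 CPM) and in Scnn1b-Tg LPS (29.0 and 136 CPM). Atf3 had no close match on the first scale, its highest r being 0.14.

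Scnn1b-Tg against WT AMs asked whether the mucus-obstructed airway left a mark on the members before or after LPS. In medium, edgeR called 0 of 10 members, where 0.262% of all genes passed. At an unadjusted p under 0.05 there were 4 members, Jun, Junb, Fosl1 and Atf3, where 13% of all genes reached this level, and DESeq2 called 2, Fosl1 and Atf3, where it called 3.65% of all genes. The groups did not overlap for Jun, Junb and Atf3, against 18.4% of all genes. In LPS, edgeR called 0 of 10 members, where 0.051% of all genes passed, and DESeq2 called 0, where it called 1.06% of all genes. There 3 members, Fos, Fosl1 and Batf, had an unadjusted p under 0.05, against 6.78% of all genes, and Fosl1, Atf3 and Batf did not overlap between the genotypes, against 9.11% of all genes. The WT medium libraries enter both the LPS comparison in WT and the genotype comparison in medium, so a member's values in these comparisons are not independent.

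**Figure D4:**
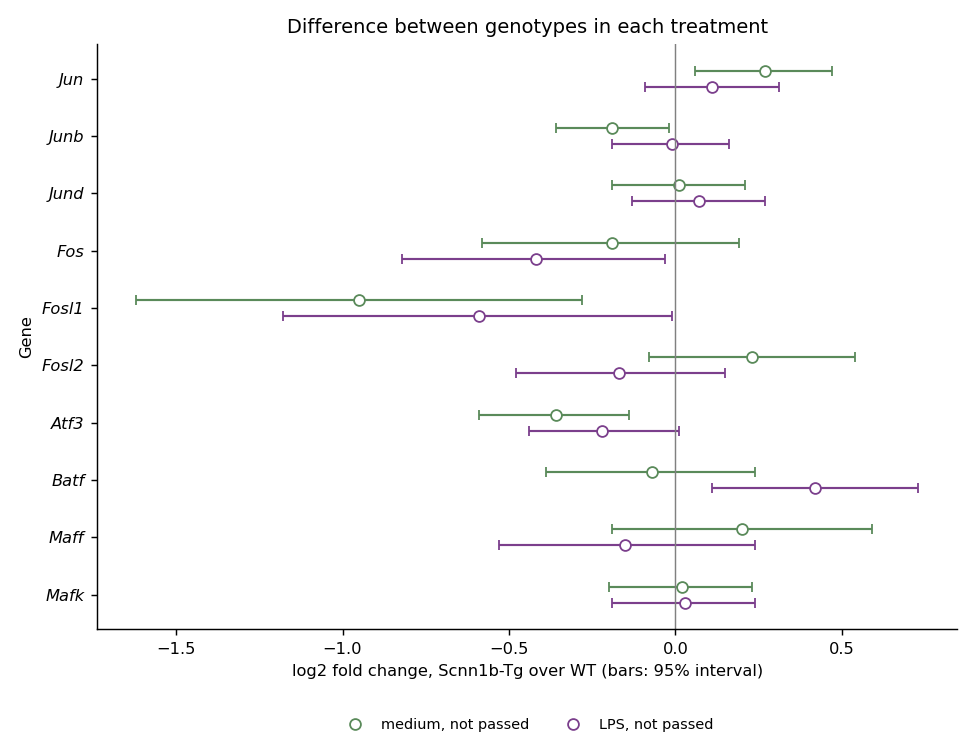
Fitted log2 fold change, Scnn1b-Tg over WT (x axis), of each member (y axis) in medium and in LPS, with 95% intervals. All points are open because no member had an adjusted p under 0.05. Fosl1 and Atf3 lie below 0 in medium, at -0.95 and -0.36, and Batf lies above 0 in LPS, at 0.42.

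Atf3 was lower in the Scnn1b-Tg AMs in medium in all libraries, 174 to 186 CPM against 223 to 244 CPM in WT. The log2 fold change of -0.36 had a 95% interval of -0.59 to -0.14 (unadjusted p = 0.00483, edgeR adjusted p = 0.18, DESeq2 adjusted p = 0.038). Library batch 1 held WT pools 16 and 17 and Scnn1b-Tg pool 17. Batch 2 held WT pool 18 and Scnn1b-Tg pools 18 and 19, so genotype and batch were not balanced. The difference was -0.32 within batch 1 and -0.41 within batch 2, each with a single library of one genotype, as in all within-batch genotype values below. In LPS the ranges were 153 to 198 and 201 to 229 CPM, again without overlap, with a log2 fold change of -0.22 (95% interval -0.44 to 0.01, edgeR adjusted p = 0.752).

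Fosl1 in medium was at 0.856 to 2.24 CPM in Scnn1b-Tg and 1.98 to 4.44 CPM in WT AMs, which overlap. The log2 fold change of -0.95 had a 95% interval of -1.62 to -0.28 (unadjusted p = 0.0102, edgeR adjusted p = 0.233, DESeq2 adjusted p = 0.0343), and it was -1.07 within batch 1 and -0.87 within batch 2. In LPS the Scnn1b-Tg libraries lay at 38.1 to 40.2 CPM, below the 50.0 to 59.5 CPM of WT (fitted log2 fold change -0.59, 95% interval -1.18 to -0.01, edgeR adjusted p = 0.736). The difference in LPS was smaller within the batches, -0.47 and -0.36.

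Batf in LPS was at 35.9 to 36.9 CPM in Scnn1b-Tg and 23.7 to 33.0 CPM in WT AMs. The log2 fold change was 0.42 with a 95% interval of 0.11 to 0.73 (unadjusted p = 0.0133, edgeR adjusted p = 0.529), and it was 0.39 and 0.51 within the batches. In medium the difference was -0.07 (95% interval -0.39 to 0.24). For Jun in medium it was 0.27 (0.06 to 0.47, edgeR adjusted p = 0.261) and for Junb -0.19 (-0.36 to -0.02, edgeR adjusted p = 0.346). For Fos it was -0.19 (-0.58 to 0.19), for Fosl2 0.23 (-0.08 to 0.54) and for Maff 0.2 (-0.19 to 0.59), none of them called. Fos in LPS differed by -0.42 (95% interval -0.82 to -0.03, edgeR adjusted p = 0.695). Jund and Mafk in medium had intervals on both sides of 0, -0.19 to 0.21 and -0.2 to 0.23. The remaining members in LPS had log2 fold changes of 0.11 for Jun (-0.09 to 0.31), -0.01 for Junb (-0.19 to 0.16), 0.07 for Jund (-0.13 to 0.27), -0.17 for Fosl2 (-0.48 to 0.15), -0.15 for Maff (-0.53 to 0.24) and 0.03 for Mafk (-0.19 to 0.24). The Jun difference in LPS was 0.27 within batch 1 and -0.06 within batch 2. Beside these values, the epithelial marker list had a median log2 fold change between genotypes of -0.25 in medium and -0.9 in LPS over 9 tested genes, of which 0 passed by edgeR and 3 and 6 had an unadjusted p under 0.05. The macrophage marker list had a median of 0.27 in medium and 0.06 in LPS. Of its 16 genes 1, Lpl, the gene of lipoprotein lipase, passed in medium, against the direction of that median, at 2860 ± 150 CPM (SD, n = 3) in Scnn1b-Tg against 4030 ± 340 CPM in WT AMs (log2 fold change -0.52, edgeR adjusted p = 0.01). The part of these marker differences in the genotype differences of the members was not tested.

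The LPS response itself was compared between the genotypes by the interaction term. EdgeR called 0 of 10 members and 0.0% of all genes, and DESeq2 called 0 members and 0.561% of all genes. Batf alone had an unadjusted p under 0.05 (0.0277), a level that 5.79% of all genes reached. Its rise with LPS was larger in Scnn1b-Tg by 0.49 on the log2 scale (95% interval 0.07 to 0.92, edgeR adjusted p = 0.793). Per pool it was 1.95-fold to 2.44-fold in Scnn1b-Tg and 1.48-fold to 1.75-fold in WT. The share of all genes whose pools separate between the genotypes in this way was not counted. The response of Fosl2 was 0.4 lower on the log2 scale in Scnn1b-Tg (95% interval -0.82 to 0.03, edgeR adjusted p = 0.892), with pools at 0.918-fold to 1.01-fold against 1.14-fold to 1.49-fold in WT. For Fosl1 the difference was 0.36 with a wide interval of -0.5 to 1.22, and for Mafk 0.01 (-0.29 to 0.31). The other members differed by -0.16 (Jun, -0.44 to 0.12), 0.17 (Junb, -0.06 to 0.41), 0.06 (Jund, -0.22 to 0.33), -0.23 (Fos, -0.77 to 0.3), 0.14 (Atf3, -0.17 to 0.45) and -0.35 (Maff, -0.87 to 0.18).

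Other genes of the pathway were counted over fixed lists, by edgeR's adjusted p over all genes, and each count stands against the 15.2% higher and 15.7% lower of all genes in WT and the 18.8% and 17.8% in Scnn1b-Tg. Of 38 tested bZIP factors outside the 10 members, 7 rose and 10 fell in WT and 9 rose and 8 fell in Scnn1b-Tg. Besides Mafg, Creb5 (log2 fold change 1.35 in WT and 1.18 in Scnn1b-Tg) and Cebpd (1.0 and 1.3), a factor of the acute phase response, rose. Dbp, a clock output factor, fell by 1.11 and 1.28. Cebpa, which specifies the myeloid lineage, fell by 0.98 and 1.26. The median of this list was 0.09 in WT and 0.05 in Scnn1b-Tg.

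Of 30 tested MAP kinase pathway genes, 9 rose and 5 fell in WT and 9 rose and 8 fell in Scnn1b-Tg. The kinase genes Map3k14 (0.93 and 1.2), Mapkapk2 (0.82 and 1.13) and Map3k8 (1.0 and 0.67), whose product links TLR4 to ERK, rose. Rps6ka5 fell by 1.26 and 1.19, Map3k1 by 0.75 and 0.77 and Mapk3, the gene of ERK1, by 0.68 and 0.67. Of 10 tested dual specificity phosphatases, which switch MAP kinases off, 6 rose and 1 fell in WT and 5 rose and 2 fell in Scnn1b-Tg. Dusp1, which acts on p38 and JNK, rose by 1.71 and 2.12 on the log2 scale, Dusp6, which acts on ERK, by 0.73 and 0.77, and Dusp7 fell by 0.77 and 0.94. Dusp4 was at or below 8 counts in all medium libraries and at 9.13 ± 2.14 CPM (SD, n = 3) in WT LPS and 10.8 ± 1.71 in Scnn1b-Tg LPS. Against that floor in each medium library it was at least 58.7-fold higher in WT LPS and at least 73.8-fold higher in Scnn1b-Tg LPS.

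Of 9 tested genes of SRF, its cofactors and MEF2, which drive many immediate early genes, 1 rose and 2 fell in WT and 1 rose and 3 fell in Scnn1b-Tg, Elk3 by 0.28 and 0.45 and Mrtfa by -0.54 and -0.8. These counts are near the share of all genes that changed. Of 29 tested immediate early genes other than the members, 11 rose and 6 fell in WT and 11 rose and 8 fell in Scnn1b-Tg. Ier3 (3.08 and 3.04), Gadd45b (2.22 and 2.55) and Rhob (1.81 and 1.83) rose. Klf2 fell by 1.37 and 1.6, Klf4 by 1.2 and 1.71 and Zfp36l2, an RNA decay factor, by 1.16 and 1.4. The list therefore moved in both directions, as the members did. Of 12 heat shock genes 8 rose and 0 fell in each genotype, led by Hspa1a (1.03 and 1.09), Hsp90aa1 (1.04 and 1.07) and Hsph1 (0.76 and 0.99). The count of 0 falls was by edgeR. Hspa1a scattered widely, at 18.5 ± 16.1 CPM (SD, n = 3) in WT LPS.

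Of 15 tested textbook AP-1 targets, 10 rose and 2 fell in WT and 9 rose and 2 fell in Scnn1b-Tg. Mmp13, a collagenase, went from 3.36 ± 0.442 to 598 ± 155 CPM (SD, n = 3) in WT AMs, and the Scnn1b-Tg AMs went from 1.77 ± 0.986 to 403 ± 76.2 CPM. Ptgs2, the inducible cyclooxygenase, rose by 6.45 and 7.61 on the log2 scale and Il1b, a cytokine, by 5.73 and 6.46. Spp1, the gene of osteopontin, fell by 1.66 and 1.45. These genes have other regulators too, NF-κB among them. Of 7 partners and turnover factors of AP-1, 1 rose and 2 fell in WT and 1 rose and 3 fell in Scnn1b-Tg, with Fbxw7, part of a ubiquitin ligase for JUN, lower by 0.31 and 0.47 on the log2 scale. Between genotypes, edgeR called 1 gene of these pathway lists, Hmox1, the gene of heme oxygenase and a target of small MAF pairs with NRF2. In medium its level was 478 ± 30.5 CPM in Scnn1b-Tg AMs against 803 ± 123 CPM in WT AMs (log2 fold change -0.74 ± 0.12 SE, n = 3, edgeR adjusted p = 0.0465).

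**Figure D5:**
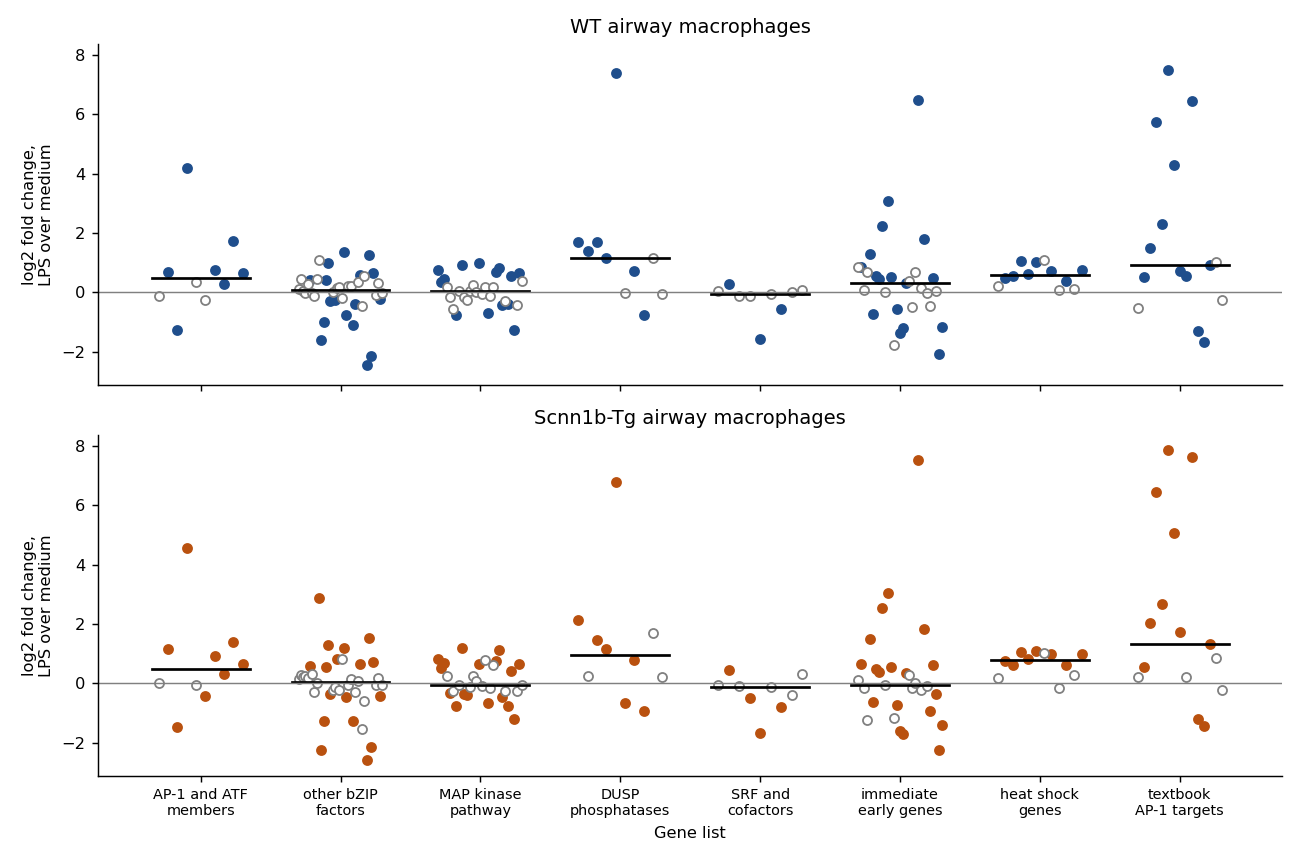
Log2 fold change, LPS over medium (y axis), of every tested gene in 8 lists (x axis), in WT (upper) and Scnn1b-Tg AMs (lower). Filled points have an adjusted p under 0.05, open points do not, and lines are list medians. The members and the immediate early genes hold points on both sides of 0, and the heat shock genes that passed lie above it.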

How the data were processed

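RNA of 12 AM libraries was sequenced by the authors from SMART-Seq v4 libraries as paired reads of 125 bases. The authors ran nf-core RNAseq 1.2, with HISAT2 on mm10 without strand, StringTie with GENCODE M20 and the prepDE script, and deposited estimated counts as whole numbers for 20551 genes. Such a count is estimated from coverage, transcript length and read length. Of values from 1 to 30, 55.3% were 0 or 3 modulo 5, against 40.0% for even spread. This was taken as a step of about 2.5 counts per read, although many values lay off that step. On this rough scale the floor of 8 counts is about 3 reads. The total per library was 48191248 to 60896505 counts, which limits the precision for low genes such as Fosl1 in medium. No column was left unused. Positions and exon lengths came from GENCODE M21 on the same build, and promoter sequences from RefSeq on GRCm38.p6.

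Genes were filtered with filterByExpr (minimum count 10, minimum total 15), which left 13729, scaled by TMM and fitted on all 12 libraries with group and library batch by edgeR 4.0.16 (quasi-likelihood, two-sided, R 4.3.3), with Benjamini-Hochberg adjustment at 0.05. The study's methods adjust for the date of library preparation but do not assign libraries to dates. That the library batches stand for such dates was assumed. Intervals are 95% intervals of the fit. The study's own tool, DESeq2 (1.42.0 here), was run as an alternative, as were limma 3.58.1 with pool as a random effect, other size factors, no filter, no batch term, counts divided by 5, pool or number blocks, fits of the 2 groups compared and leaving out each library. Scripts were tested on simulated data.

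LPS and medium libraries of the same genotype and number were taken as one pool: their deviations from the group means correlated at 0.21 to 0.5 in 6 of 6 pools. Libraries of different pools in different groups gave -0.43 to 0.44. The deviations were not corrected for batch, so these values alone do not settle the pairing. No 2 libraries held the same values. All 10 members are named in every comparison. Of other lists, up to 3 rises and 3 falls that passed in both genotypes with a mean of at least 5 CPM are named, and every list gene that passed between genotypes. One gene that this rule names is not reported here. The members and the lists were chosen with earlier results of these data known.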

Additional observations from a re-analysis of the deposited data

How the results depend on the processing

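The count of members that passed stayed within 1.5 times of the reported one in every setting but one: for Scnn1b-Tg against WT in medium, DESeq2 called 2 members where edgeR called 0. Leaving out each library in turn gave 6 to 8 members for LPS in WT, 7 to 8 for LPS in Scnn1b-Tg, and 0 in both genotype comparisons and for the interaction. The study reports an outlier among the WT LPS libraries of its RNA data, and its text does not say which pool that was. Of 720 fits of single members, 677 kept direction and side of the threshold, 8 lost a call and 8 gained one, all named in the report. The other 27 changed sign, over 9 differences of at most 0.07 in size that passed in no setting. Of these, with the number block Jund and Mafk in medium were at -0.07 and -0.07 and Batf at 0.05, and Jund and Mafk in LPS at -0.01 and -0.06. With no batch term Mafk was at -0.04 in medium and -0.03 in LPS, and Junb in LPS at 0.02. With only the 2 groups Mafk in medium was at -0.01. Leaving out each library gave ranges of -0.04 to 0.13 for Atf3 with LPS in Scnn1b-Tg, -0.02 to 0.05 for Jund and -0.05 to 0.06 for Mafk between genotypes in medium, -0.05 to 0.05 for Junb, -0.02 to 0.13 for Jund and -0.04 to 0.09 for Mafk between genotypes in LPS, and -0.04 to 0.13 for Jund and -0.04 to 0.09 for Mafk in the interaction. Within batches, 86 of 100 differences moved by less than the spread between replicates, and 9 had the opposite sign. With the pool as a block, 9 members passed in WT and 8 in Scnn1b-Tg, among 5027 and 5784 of all genes against 4242 and 5032 without it, the additions being Jun and Fosl2 in WT, and no other call changed. The numbers 17 and 18, shared by the genotypes, gave correlations of 0.28 and 0.14 in medium and 0.44 and 0.31 in LPS. With number as the block 0 members passed in either treatment, where 0.35% of all genes did in medium and 0.0874% in LPS.

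Counts over all genes depended more on the setting. Between genotypes in medium, edgeR called 36 genes, DESeq2 501, and edgeR 20 with no filter, 19 with no batch term, 61 with counts divided by 5, 12 with only the 2 groups and 4 to 21 with a library left out. In LPS these were 7, 146, 6, 1, 11, 2 and 2 to 11, with 11 for the random pool effect and 12 for the number block. For the interaction, edgeR called 0 and DESeq2 77. The cause of these differences was not tested. Depth limits Fosl1 in medium, at 50 to 221 counts a library, and Dusp4 in medium, at or below 8 counts.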
